A study of Mus musculus with 16 samples.

Results

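The genes described here are 9 markers by which Kupffer cells, the resident macrophages of the liver sinusoids, are recognised in the mouse: Clec4f, Timd4, Vsig4, Marco, Cd5l, Cd163, Folr2, Clec1b and Id3. They were taken by gene symbol from the array's platform annotation, and each of the 9, of 19505 genes measured in all, had a single probe set. The series holds liver biopsies of 16 C57BL/6 mouse samples, 8 from control mice and 8 from mice that model nonalcoholic steatohepatitis (NASH), in which a fatty liver is also inflamed, measured as total RNA on 1-colour Affymetrix arrays. The labels used here do not say how the model was induced, and they give no age, sex or treatment. The study's title concerns stimulation of soluble guanylate cyclase, but all samples used here are labelled only control or NASH model, so the comparison is of the model liver with the control liver. Each sample is called by its group and its label number (the NASH model has both a 1a and a 1b).

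Kupffer cells settle in the liver before birth, renew themselves there, and clear bacteria, dying cells, immune complexes and old red cells from portal blood. Their identity is imposed by the sinusoid: Notch ligands, BMP and TGF-beta family ligands from endothelial and stellate cells, and the growth factor CSF1 induce the transcription factors that keep the identity genes on, among them the liver X receptor alpha encoded by Nr1h3. Resident and monocyte-derived macrophages share many genes, and some identity genes, such as Clec4f, are also acquired by monocytes that settle in the emptied niche, while Timd4 is acquired late.

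Of the 9 genes, 4 fell in the NASH model livers, 1 rose, and 4 did not pass the test. The scavenger receptor Cd163 fell 7.16-fold and the phosphatidylserine receptor Timd4 fell 4.0-fold, while the lectin Clec4f fell 1.95-fold and the folate receptor Folr2 fell 1.59-fold. Cd5l, a secreted scavenger protein of macrophages, went the other way and rose 1.57-fold. Vsig4, Marco, Clec1b and Id3 had adjusted p of 0.56, 0.34, 0.69 and 0.15. Among all 19505 genes, 13.4% were called lower and 13.2% higher, at an adjusted p under 0.05 in limma's moderated test with Benjamini-Hochberg adjustment over all genes. Higher calls made up 49.6% of all calls, a share that was 39.2% with median centring and 73.7% with spike-in centring. The median log2 difference, NASH model minus control, was -0.50 over the 9 genes and -0.04 over all genes. In bulk tissue, fewer cells of a type and less RNA per cell cannot be told apart.

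The DNA just upstream of 4 of the genes is given here because the falling genes Cd163, Timd4 and Clec4f can then be set beside the rising Cd5l. Each sequence is the 250 bases before a RefSeq transcription start on build GRCm38.p6, read along the gene's own strand, with capitals on every match to 1 of 8 short motifs. For Cd163 and Timd4 that start lies inside the annotated gene, and the last 15 and 13 bases of their windows are within it. The window of Cd163 is chr6:124304401-124304650 (plus strand), that of Timd4 is chr11:46810549-46810798 (plus), that of Clec4f is chr6:83656117-83656366 (minus) and that of Cd5l is chr3:87357631-87357880 (plus).
Cd163: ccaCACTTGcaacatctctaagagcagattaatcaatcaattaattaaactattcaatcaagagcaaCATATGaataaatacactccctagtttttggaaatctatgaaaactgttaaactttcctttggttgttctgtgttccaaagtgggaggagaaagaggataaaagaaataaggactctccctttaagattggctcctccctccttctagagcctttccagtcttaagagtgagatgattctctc
Timd4: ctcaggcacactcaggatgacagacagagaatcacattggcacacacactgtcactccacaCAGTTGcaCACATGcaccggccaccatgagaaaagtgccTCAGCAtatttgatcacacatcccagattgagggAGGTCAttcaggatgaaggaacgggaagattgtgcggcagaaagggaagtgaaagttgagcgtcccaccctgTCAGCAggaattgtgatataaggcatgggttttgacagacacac
Clec4f: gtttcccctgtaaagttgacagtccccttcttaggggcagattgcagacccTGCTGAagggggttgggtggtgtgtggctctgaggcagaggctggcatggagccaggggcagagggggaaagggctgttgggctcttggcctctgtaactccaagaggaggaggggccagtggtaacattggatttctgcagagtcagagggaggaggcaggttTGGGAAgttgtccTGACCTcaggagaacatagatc
Cd5l: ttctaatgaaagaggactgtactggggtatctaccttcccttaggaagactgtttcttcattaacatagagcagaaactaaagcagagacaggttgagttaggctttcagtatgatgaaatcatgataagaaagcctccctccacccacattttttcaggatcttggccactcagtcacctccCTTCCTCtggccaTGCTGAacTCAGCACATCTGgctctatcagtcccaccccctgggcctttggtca
The motifs, searched on both strands, were the PU.1 site GAGGAAG, the MAF half-site TGCTGA, the AP-1 site TGANTCA, the RBPJ site TGGGAA, the nuclear receptor half-site AGGTCA, the E-box CANNTG, the TATA box TATAAA and the SMAD site GTCTAGAC. The E-box can overlap the others. The MAF half-site lay in the windows of Timd4, Clec4f and Cd5l, and in 16.1% of the 32851 RefSeq windows of the same length. The nuclear receptor half-site lay in the windows of Timd4 and Clec4f and in 14% of all windows. Of these 4, the window of Cd5l alone held the PU.1 site (10.6% of all windows) and that of Clec4f alone held the RBPJ site (21.6%). Cd163, the gene with the deepest fall, had only an E-box match, which 66.2% of all windows hold. GC content was 36.8% for Cd163, 50.0% for Timd4, 57.2% for Clec4f and 46.8% for Cd5l, against a median of 52.4% over all windows. Among the members not printed here, the windows of Marco and Id3 also held the PU.1 site, that of Marco the RBPJ site, and those of Folr2 the MAF half-site. The 4 printed windows were chosen by how their genes changed, so a match in only 1 of them does not mark a direction. A link between the matches and the expression values was not tested.

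Values are log2 intensities after quantile normalization, and levels of different probe sets are not compared with each other, since each probe set has its own brightness. A background floor of 2.89 was taken from 1410 olfactory and vomeronasal receptor genes, as the 95th percentile of their values. All 9 genes lay above this floor in all 8 controls. The hepatocyte gene Alb was at 12.62 in controls and 12.64 in the NASH model, near the highest value of 12.74. Over all probe sets with a symbol 5196 genes (26.6%) were called, and the first principal component held 45.3% of the variance.

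Among the receptors that take up cargo from blood, Cd163 showed the deepest fall. It binds complexes of haemoglobin and haptoglobin and hands the haem to the macrophage for recycling. In controls it ran from 5.56 in control 9 through a median of 5.90 to 6.25 in control 7, and in the NASH model from 2.74 in sample 7 through 3.06 to 3.31 in sample 4. The groups did not overlap for this gene, the only one of the 9 of which that was true. Over all genes the groups did not overlap for 9.54%, made up of 3.89% that were lower and 5.65% that were higher in the NASH model. The log2 difference was -2.84 ± 0.13 (SE, n = 8 per group, adjusted p = 5.6e-12), the 12th largest fall among the 2619 genes called lower. In 3 of 8 NASH model samples the signal was below the floor. With those values set to the floor the fall was 7.0-fold.

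Timd4 encodes TIM-4, which holds phosphatidylserine on dying cells and marks long-resident tissue macrophages. Its controls ran from 3.52 in control 5 through a median of 4.91 to 5.5 in control 7, and its NASH model samples from 2.01 in 1a through 2.78 to 3.74 in 1b. Control 5 and NASH model 1b were the only samples inside the other group's range, and the other 7 controls all lay at 4.6 or above. The log2 difference was -2.0 ± 0.25 (SE, n = 8 per group, adjusted p = 4.9e-06). In 5 of 8 NASH model samples Timd4 was below the floor, so its low end has no order. With values at the floor the fall was 3.44-fold.

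Clec4f, the C-type lectin that in the mouse is close to exclusive to Kupffer cells and binds galactose-containing glycans, fell by 0.97 ± 0.23 SE on the log2 scale (adjusted p = 0.0032). Controls ran from 7.21 in control 5 through 7.63 to 8.18 in control 7, and NASH model samples from 5.39 in sample 7 through 6.85 to 7.57 in sample 4. Of the 8 NASH model samples 7 lay below every control, and sample 4 lay within the control range. Sample 7 lay apart from the other 7 model samples, which ran from 6.49 to 7.57, and without it the fall was 0.78 ± 0.17 (adjusted p = 0.0023).

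Folr2, a folate receptor of resident macrophages, showed the smallest of the called falls, at -0.67 ± 0.21 SE (adjusted p = 0.022). It ran from 5.53 to 6.95 in controls, with a median of 6.21, and from 4.83 to 6.29 in the NASH model, with a median of 5.70. The groups overlapped widely, since 3 of 8 model samples lay below every control and 2 of 8 controls lay above every model sample. The call was lost when NASH model 2 and 7 were left out (adjusted p = 0.073) and when arrays were centred on hybridization spike-in controls (adjusted p = 0.058).

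Cd5l, also called AIM, is an apoptosis inhibitor that macrophages secrete and that carries scavenger receptor cysteine-rich domains like those of Cd163. Its controls ran from 7.51 in control 5 through 7.99 to 8.99 in control 4, and its NASH model samples from 8.25 in sample 3 through 8.84 to 9.08 in sample 2. It rose by 0.65 ± 0.18 SE (adjusted p = 0.011). The groups overlapped, with 5 of 8 controls below every NASH model sample and control 4 higher than 6 of the 8 model samples. Leaving out any single sample kept the call, with a log2 difference between 0.56 and 0.77.

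Vsig4, or CRIg, the complement receptor that catches C3-coated bacteria from blood, differed by -0.19 ± 0.20 SE, with a 95% interval of -0.62 to 0.24. Its controls ran from 6.33 through a median of 7.05 to 7.44 and its NASH model samples from 5.82 through 6.77 to 7.26, and all model samples except sample 7 lay within the control range. The interval leaves out a fall of the size seen for Cd163 or Timd4, but it does not show that Vsig4 was the same in both groups.

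Marco, a collagen-like scavenger receptor for bacteria and particles, was the most variable of the 9 genes in control livers and had an SD of 1.10 there against 0.34 in the NASH model. Control 4 was at 6.90, control 7 at 6.03 and control 3 at 5.54, while the other 5 controls lay between 3.95 and 4.51. The NASH model samples ran from 4.07 through 4.27 to 5.02, wholly inside the control range. The log2 difference was -0.50 ± 0.35 SE, with a 95% interval of -1.25 to 0.24, and it moved between -0.64 and -0.22 when single samples were left out.

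Clec1b, or CLEC-2, the receptor for podoplanin that platelets and megakaryocytes also carry, varied least among the 9 genes in controls. It ran from 5.92 through 6.42 to 6.58 in controls and from 6.03 through 6.48 to 6.68 in the NASH model. The difference was 0.08 ± 0.12 SE, with a 95% interval of -0.18 to 0.34. Platelet markers did not move as a group beside it: of 6 measured, Pf4 was higher (0.69 ± 0.18), Ppbp was lower with all model samples below the floor, and 4 did not pass. Ppbp was also below the floor in 4 of 8 controls, and with values at the floor its difference was -0.20. The filter on dim genes left it out. The mean log2 level of the 6 ran from 3.22 to 3.72 in controls and from 3.14 to 3.59 in the NASH model, and Gp6 was below the floor in every sample.

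Id3, a DNA-binding inhibitor that blocks E proteins and is needed for Kupffer cells to develop, is the only transcriptional regulator of the 9 and is also expressed by endothelial and stellate cells. Controls ran from 5.70 through 6.08 to 7.21 and NASH model samples from 6.04 through 6.82 to 7.23. Controls 6, 9 and 10, at 6.58, 7.21 and 7.0, lay within the NASH model range, and so did control 4 at 6.29. The difference was 0.46 ± 0.22 SE (95% interval -0.01 to 0.92, adjusted p = 0.15). It passed without control 9, at 0.59 ± 0.20 (adjusted p = 0.040), so that 2 genes were then higher in place of 1.

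**Figure D1:**
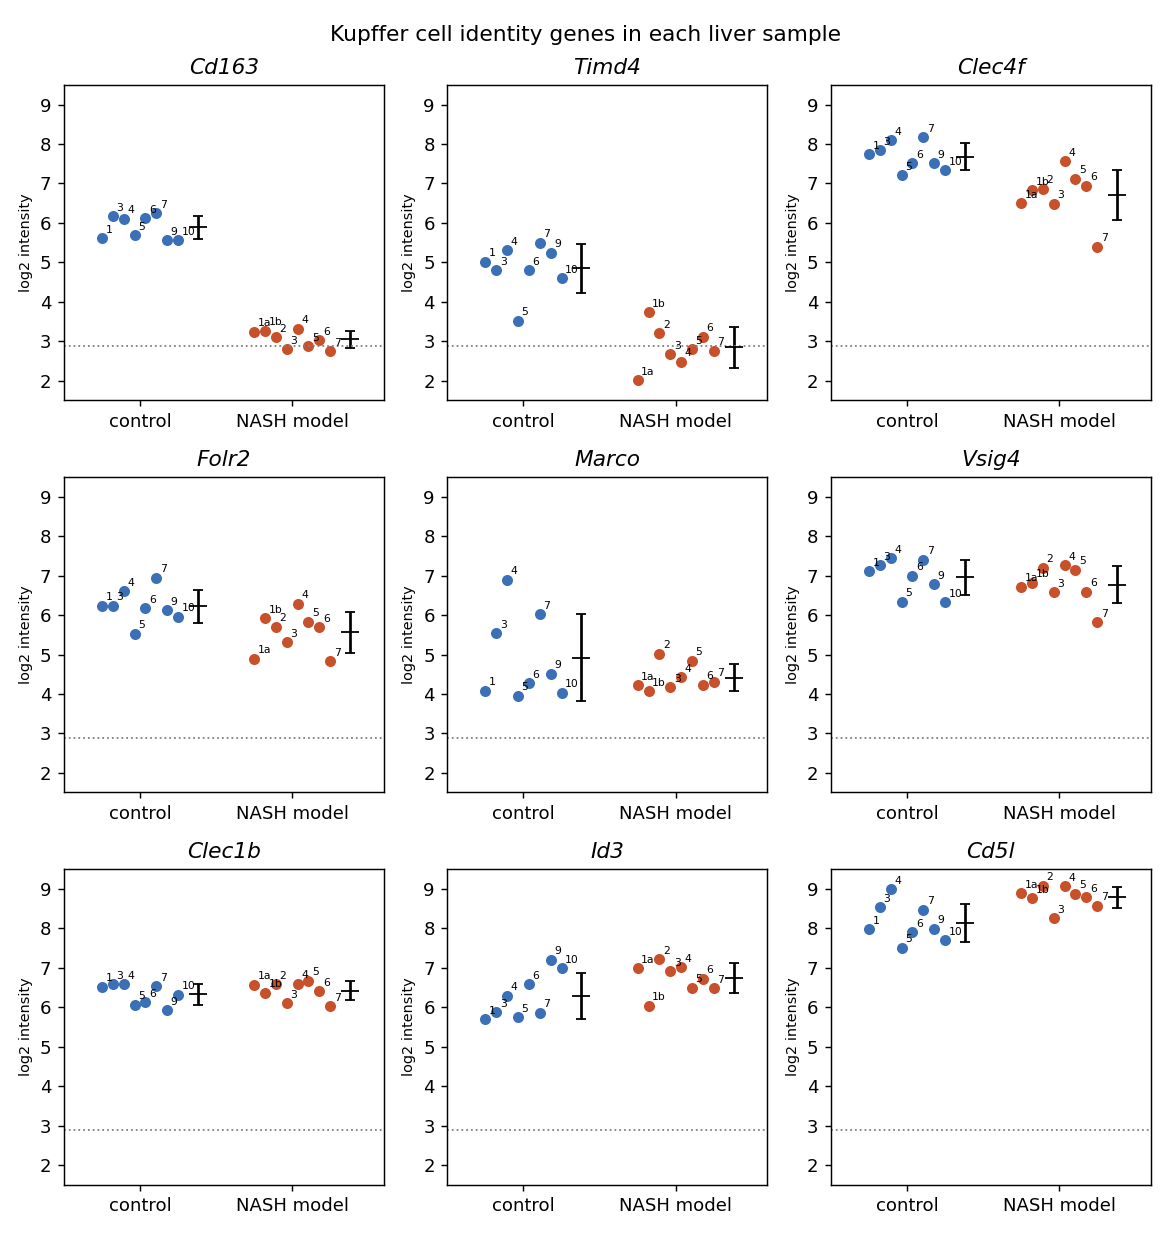
Log2 intensity of each of the 9 Kupffer cell identity genes in 8 control (blue) and 8 NASH model (orange) liver samples, each point a sample with its number, bars the mean and SD, and the dotted line the background floor of 2.89. Cd163 separates the groups without overlap, and for Clec1b the ranges overlap widely.

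The shared course of Clec4f with some of these genes, and not with others, was measured within each array. The gap between a gene and Clec4f in the same sample is not moved by a shift common to all probe sets of an array. Over the 5 scalings tried, the change in a gap moved by at most 0.13 log2 units, and for Cd163 it ran from -1.95 to -1.84. The deposited values, median centring and spike-in centring differ only by a constant per array, so their gaps are the same by construction. Against Clec4f, Cd163 was lower in the NASH model by a further 1.87 ± 0.21 log2 units (SE) and Timd4 by a further 1.04 ± 0.31. Vsig4 was higher relative to Clec4f by 0.78 ± 0.11, Clec1b by 1.05 ± 0.19, Id3 by 1.42 ± 0.36 and Cd5l by 1.62 ± 0.20. The exact two-sided permutation test over the 12870 ways to assign the labels gave p = 0.00016, the smallest it can give, for Cd163, Vsig4, Cd5l and Clec1b, whose gaps did not overlap between groups. The same exact permutation test gave p = 0.0056 for Timd4, 0.003 for Id3, 0.018 for Folr2 (0.30 ± 0.12) and 0.22 for Marco (0.46 ± 0.36). These are 8 unadjusted tests, chosen after the values were seen. All 8 subtract the same Clec4f values, so they are not separate results. Vsig4 (-0.19) and Clec1b (0.08) did not pass on their own, and Clec4f changed by -0.97. Their gaps thus mostly carry the change in Clec4f. Leaving out single samples kept the sign of each gap, with Folr2 between 0.22 and 0.37, Timd4 between -1.21 and -0.86 and Cd163 between -2.02 and -1.79. Both Cd163 and Timd4 had NASH model values below the floor. With these set to the floor, a setting chosen after seeing the data, the change was -1.84 for Cd163 (exact permutation p = 0.00016) and -0.82 for Timd4 (exact permutation p = 0.011, and -0.98 to -0.67 without single samples).

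**Figure D2:**
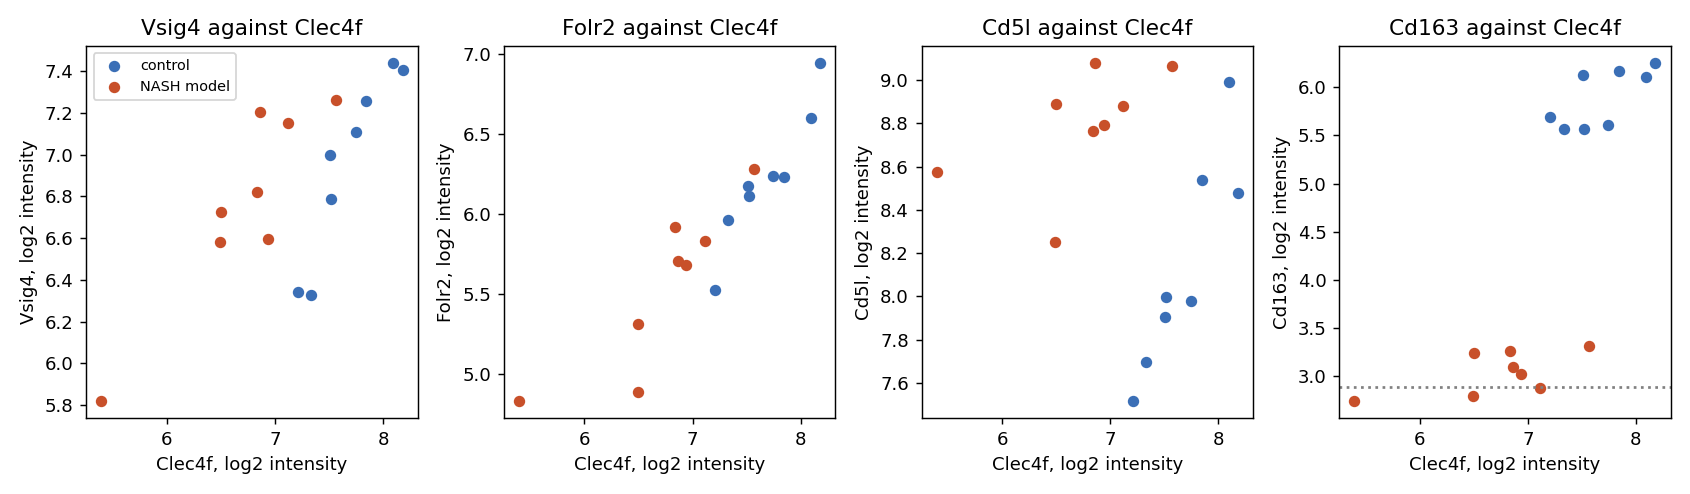
Vsig4, Folr2, Cd5l and Cd163 plotted against Clec4f, all as log2 intensity, in 8 control (blue) and 8 NASH model (orange) samples; the dotted line is the background floor. Folr2 varies with Clec4f within both groups, with a gap to Clec4f that changed by 0.30, NASH model minus control. Cd163 lies lower and Cd5l higher in the NASH model, with a gap to Clec4f that changed by -1.87 and 1.62.

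Some livers lay to 1 side of their group mean in all or nearly all of the 9 genes. In controls, control 4 was above the group mean in 9 of 9 genes and control 7 in 8 of 9, whereas control 5 was below it in all 9 and was the lowest control in 5. In the NASH model, sample 2 was above the group mean in 9 of 9 genes and sample 4 in 8 of 9, while sample 7 was below it in all 9 and was the lowest in 5. The general macrophage markers varied among the same controls: their mean log2 level over 11 genes was highest in control 4 (6.75) and control 7 (6.59) and low in control 5 (5.87), control 6 (5.91) and control 10 (5.84). NASH model 7, lowest for the identity genes, had a general macrophage level of 8.05, within the model range of 7.70 to 8.08. Recruited macrophage markers were at their highest there, at 8.62 against 7.88 to 8.49 in the other 7. That 8.49, and the highest general macrophage level of 8.08, were in NASH model 2, where all 9 identity genes lay above the group mean. The part of these levels in the results was not tested.

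**Figure D3:**
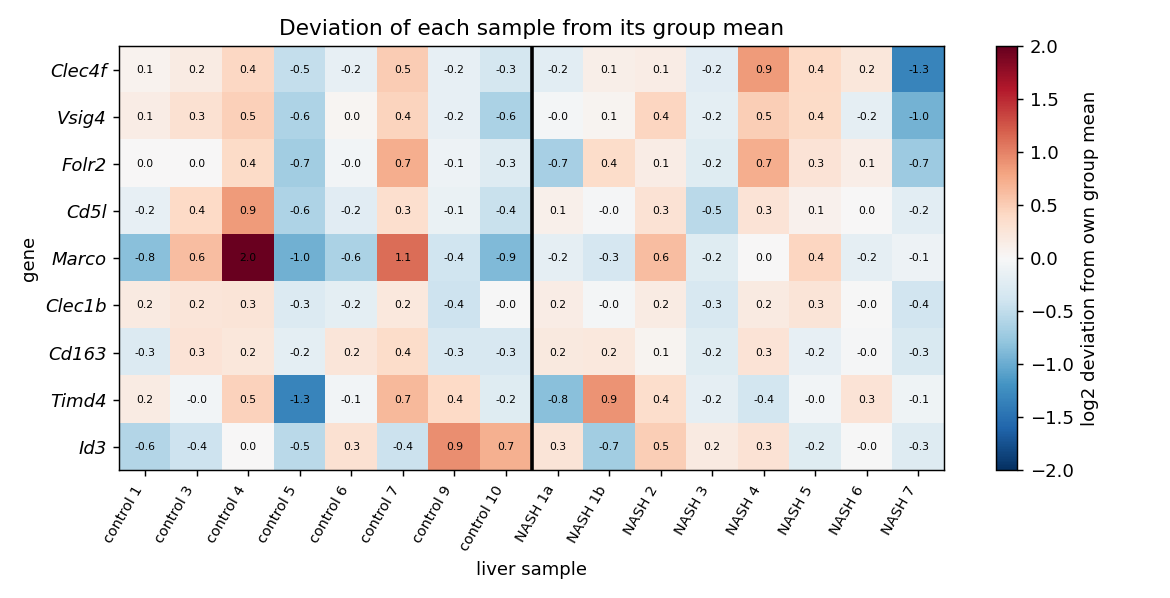
Deviation of each liver sample from the mean of its own group, in log2 units, for the 9 genes (rows) and the 8 control and 8 NASH model samples (columns). Control 4 is at or above its group mean in every row, and control 5 and NASH model 7 are below it in every row.

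Pearson correlations between the genes across the 8 samples of a group are given as descriptions, since the points share the array and the biopsy. Among the 8 genes other than Id3, the 28 pairs had a median r of 0.75 in controls (range 0.36 to 0.96) and of 0.55 in the NASH model (range -0.12 to 0.91). Without the 2 samples farthest from the median of the first gene of each pair, the median was 0.66 in controls (range -0.06 to 0.98) and 0.34 in the NASH model (range -0.30 to 0.90). For Cd163 with the other 7 in the NASH model, where 3 of its 8 values were below the floor, the median r went from 0.60 to 0.04. Leaving out the farthest samples also narrows the range, so the lower r does not show that a relation rests on them. Clec4f and Vsig4 had r = 0.94 in controls and 0.91 in the NASH model, with Spearman's rho of 0.93 and 0.81. Without the 2 samples farthest from the median of Clec4f, r was 0.95 and 0.60. Clec4f and Folr2 had r = 0.94 and 0.88 (rho 0.95 and 0.81, and r of 0.86 and 0.83 without such samples). Marco and Cd5l had r = 0.96 in controls (rho 0.95, and 0.93 without such samples) and 0.56 in the NASH model (rho 0.67, and 0.46 without such samples). Timd4 had r between 0.36 and 0.88 with the other 7 in controls and between -0.12 and 0.43 in the NASH model, where most of its values were below the floor. Id3 stood apart, with r between -0.55 and 0.21 in controls and between -0.55 and 0.41 in the NASH model.

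The genes most like the 9 from liver to liver were found by the mean within-group correlation over 16 samples among 12365 candidate genes above the floor. They were Ube4b (mean r = 0.63), Tmem62 (0.62), Unc93b1 (0.62), Bpifb5 (0.61), Cfp (0.60) and Snx10 (0.60). With Id3 alone their r ran from -0.33 (Cfp) to 0.26 (Ube4b), so the likeness is mainly to the other 8 genes. Cfp encodes properdin, which stabilises the alternative complement convertase, and Unc93b1 carries endosomal Toll-like receptors. Of these 6, Unc93b1 rose (0.68 ± 0.10, adjusted p = 3.2e-05) and the other 5 did not pass, with Cfp at 0.03 ± 0.17 (adjusted p = 0.93). When correlations were taken over the 16 samples with the group difference left in, 3 of the 6 were again among the first 6. The other 3 ranked lower, with Cfp at 60, Snx10 at 1060 and Unc93b1 at 7139 (mean r = -0.04).

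Other genes of Kupffer cells were measured beside the 9. Of 12, 4 fell and 8 did not pass, with a median of 0.08. By limma 0 were called higher, 3 were higher at an unadjusted p under 0.05, and 4 were called higher with spike-in centring. The chemokine Cxcl13 had a log2 difference of -2.64 ± 0.38 SE, the complement component C6 one of -1.5 ± 0.23 and ficolin A, encoded by Fcna, one of -1.31 ± 0.19, each without overlap between the groups. In 5 of 8 NASH model samples Cxcl13 was below the floor. The potassium channel gene Kcna2 also fell, by 0.63 ± 0.14, but was not called with spike-in centring (adjusted p = 0.0714). Cd207, the lectin gene next to Clec4f in RefSeq, had a difference of 0.36 ± 0.19 (adjusted p = 0.18), Il18bp one of 0.25 ± 0.13 (0.18) and the iron exporter gene Slc40a1 one of 0.19 ± 0.09 (0.14).

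**Figure D4:**
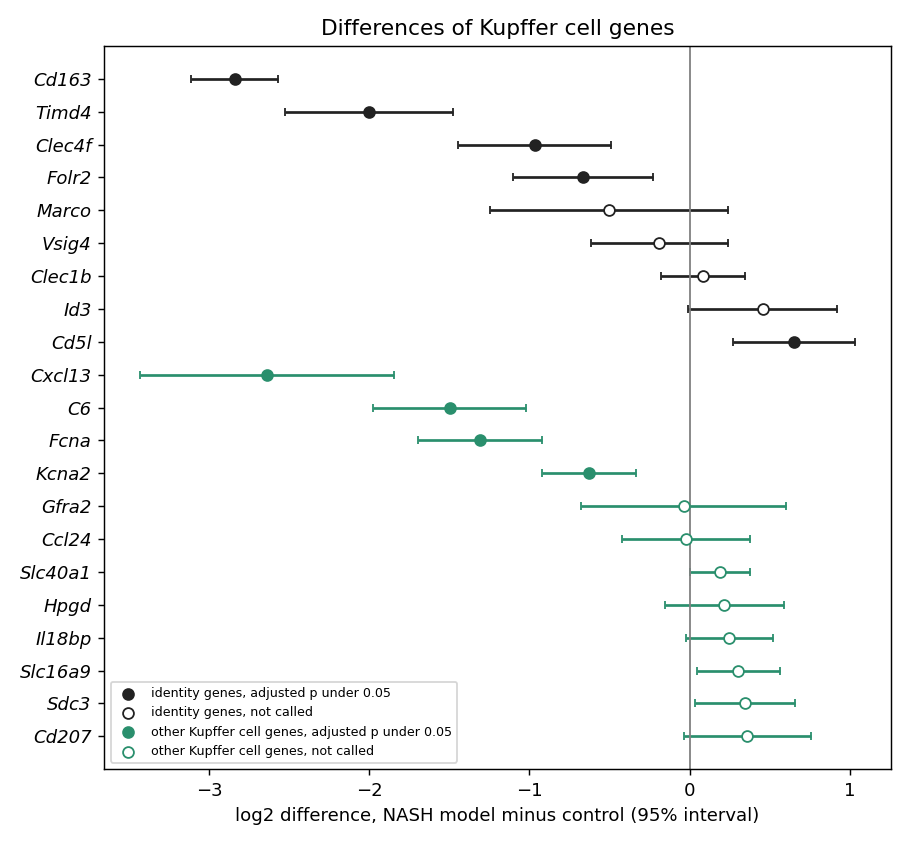
Log2 difference, NASH model minus control, with its 95% interval for the 9 identity genes (black) and 12 other Kupffer cell genes (green), filled where the adjusted p was under 0.05. Cd163, Timd4, Clec4f and Folr2 fell and Cd5l rose, and Cxcl13 fell furthest among the other genes.

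The regulators of Kupffer cell identity went both ways. Of 10 transcription factor genes measured, 4 rose and 2 fell, with a median of 0.17. Nr1h3 fell by 0.43 ± 0.11 (adjusted p = 0.0061), and Rxra, whose protein pairs with it on DNA, fell by 0.37 ± 0.09 without overlap between groups. Spi1, which encodes PU.1, the general factor of myeloid cells, rose by 1.74 ± 0.16, Pparg by 2.31 ± 0.15 and Irf8 by 0.61 ± 0.11. Spic, a factor of macrophages that recycle iron, had a difference of -0.08 ± 0.17 and Maf one of -0.12 ± 0.09, and Rbpj, which carries Notch signals to DNA, one of 0.27 ± 0.12, none of which passed (adjusted p = 0.77, 0.40 and 0.10). Nr1h3, Rxra and Pparg are also expressed by hepatocytes, so their levels do not belong to macrophages alone.

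Of 10 ligands of the sinusoidal niche, 4 rose and 1 fell. Tgfb1 rose by 1.26 ± 0.11 and Csf1, the growth factor that keeps macrophages alive, by 1.17 ± 0.11, both without overlap between groups. Gdf2, which encodes BMP9, rose by 0.61 ± 0.15, and the Notch ligand gene Jag1 rose by 0.77 ± 0.25, a call that was lost without control 4 (adjusted p = 0.0546) and without several other single samples. Bmp2 fell by 0.72 ± 0.21, a call that was lost with spike-in centring (adjusted p = 0.126) and without NASH model 2 and 7 (adjusted p = 0.0586). Dll4, the endothelial Notch ligand, had a difference of -0.39 ± 0.19 and Bmp10 one of -0.40 ± 0.22, neither of which passed (adjusted p = 0.15 and 0.19). Of 12 receptors and mediators, 4 rose and 1 fell. They were Tgfbr1 (1.07 ± 0.11), the CSF1 receptor Csf1r (1.03 ± 0.13), Tgfbr2 (0.63 ± 0.12) and the BMP9 receptor Acvrl1 (0.58 ± 0.18), against the Notch target Hes1 (-0.49 ± 0.18, adjusted p = 0.048). Acvrl1 lost its call with NASH model 1a and 1b left out (adjusted p = 0.0684). Hes1 lost its call under each of the 4 other scalings and without several single samples, for example at adjusted p = 0.072 without control 5. Id1, the closest relative of Id3 and like it a BMP target, rose by 1.20 ± 0.30 (adjusted p = 0.0057), whereas Id2 and Id4 did not pass.

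The partners and relatives of the 9 proteins were mixed. Hp, which encodes the haptoglobin that Cd163 binds, had a difference of 0.27 ± 0.13 and the podoplanin gene Pdpn, for the ligand of Clec1b, one of -0.11 ± 0.11, and neither passed (adjusted p = 0.15 and 0.52). The E protein genes Tcf12 (0.33 ± 0.08) and Tcf4 (0.30 ± 0.09) rose. Tcf4 lost its call with NASH model 2 and 7 left out and with median centring (adjusted p = 0.091 in both), and Tcf3 did not pass (-0.16 ± 0.13). Fasn, the fatty acid synthase that Cd5l binds and inhibits, fell by 1.37 ± 0.21. Of 14 relatives, 4 rose and 3 fell: the TIM genes Havcr2 (1.04 ± 0.17) and Timd2 (-0.90 ± 0.08) moved oppositely, and the scavenger receptor genes Msr1 (1.01 ± 0.13) and Scara5 (-1.59 ± 0.27) did too. Havcr1, the RefSeq neighbour of Timd4, fell by 0.49 ± 0.11, with 6 of 8 model samples below the floor. Of the other C-type lectin genes named here, Clec4g, an endothelial marker, also fell (-0.69 ± 0.13), while Clec1b, Cd207 beside Clec4f, and Clec12b and Clec9a beside Clec1b did not pass.

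Genes of iron and haem handling rose in 6 of 9, with a median of 0.55, and the other 3 did not pass. Among these, Lrp1, at -0.23 ± 0.09 (adjusted p = 0.057), was called lower with median centring (adjusted p = 0.0155) and under some other settings. Haem oxygenase Hmox1 rose by 2.04 ± 0.15, the iron transporter of the phagosome Slc11a1 by 1.92 ± 0.13 and biliverdin reductase Blvrb by 0.92 ± 0.11, each without overlap between the groups. In the same livers Cd163 fell, and which cells these signals came from was not tested.

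Markers of other macrophages mostly rose, in the opposite direction to most of those of the 9 genes that were called. General macrophage genes rose in 11 of 11 measured, with a median of 1.39, led by Lyz2 (3.16 ± 0.17), Ctss (2.77 ± 0.15) and Tyrobp (2.48 ± 0.12). Their mean log2 level ran from 5.84 to 6.75 in controls and from 7.70 to 8.08 in the NASH model. Recruited and lipid-associated macrophage genes rose in 9 of 10 (median 3.48; mean level 4.14 to 4.67 against 7.88 to 8.62), led by Mmp12 (8.26), Gpnmb (7.51) and Lgals3 (4.08), and Fabp5 did not pass. Mmp12 and Gpnmb were each below the floor in 4 of 8 controls, and with those values at the floor their differences were 8.18 and 7.33. Monocyte genes rose in 6 of 8 (median 1.61; mean level 3.03 to 4.02 against 4.68 to 5.03), led by Itgam (3.18 ± 0.31), Ccr2 (2.12) and Ly6c2 (1.67), with Ccr2 below the floor in 3 of 8 controls (2.03 with those values at the floor), while Chil3 was below the floor in all 16 samples. Sinusoidal endothelial genes fell in 7 of 11 and rose in 2 (median -0.48; mean level 6.36 to 6.87 against 6.10 to 6.48), or fell in 4 with spike-in centring. Those furthest down were Oit3 (-0.70 ± 0.14), Kdr (-0.70 ± 0.11) and Clec4g (-0.69 ± 0.13). The 2 that rose were Stab1 (0.66 ± 0.18, or 0.59 with values at the floor) and Lyve1 (0.61 ± 0.19). Without NASH model 2 and 7 only 1 was called higher. Stellate cell genes rose in 4 of 7 (mean level 5.74 to 6.17 against 6.61 to 6.88), led by Pdgfrb (1.67 ± 0.13), Dcn (1.34 ± 0.09) and Des (0.81 ± 0.15). Hepatocyte genes fell in 3 of 10, namely F7, Cebpa and Hnf4a, and in 5 with median centring (mean level 11.08 to 11.17 against 10.77 to 10.99). In controls these 3 lay at 8.54, 9.10 and 9.71, and the 7 not called lay from 11.18 (Cps1) to 12.62 (Alb). The highest value was 12.74, and whether such bright signals were saturated was not tested. The part of these cell types in the values of the 9 genes was not tested.

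**Figure D5:**
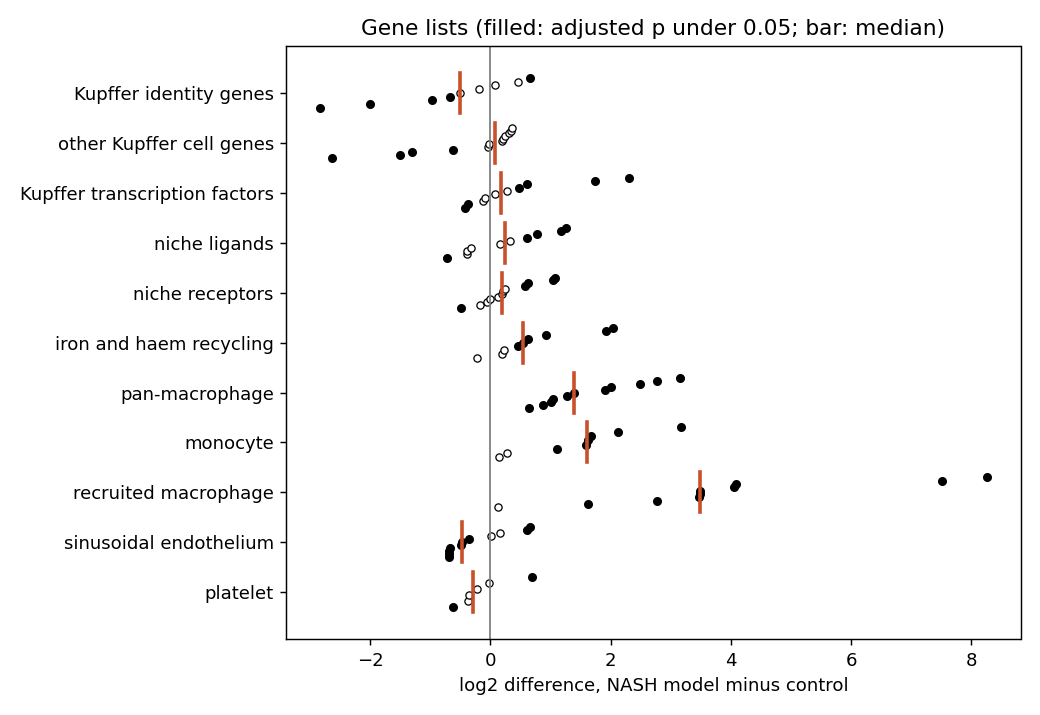
Log2 difference, NASH model minus control, of every measured gene of 11 lists, filled where the adjusted p was under 0.05, with a bar at the list's median. The identity genes spread from -2.84 to 0.65 around a median of -0.50, while all 11 general macrophage genes lie above 0.

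Markers of lymphocytes, neutrophils and dendritic cells were mostly not called. Lymphocyte genes rose in 2 of 8 (Cd8a at 1.02 ± 0.20 and Cd3e at 0.62 ± 0.18) and fell in 1 (Cd4 at -1.66 ± 0.20), neutrophil genes rose in 2 of 7 (Csf3r at 1.30 ± 0.25 and S100a8 at 1.11 ± 0.31), and dendritic cell genes rose in 1 of 7 (Flt3). S100a8 was called with all samples but not without NASH model 2 and 7 (0.81 ± 0.29, adjusted p = 0.058), Cd3e lost its call with NASH model 1a and 1b left out (adjusted p = 0.069), and Flt3 and Cd8a were left out by the filter on dim genes. Flt3 was below the floor in all 8 controls and 3 of 8 model samples, so no size is given. Cd8a and S100a8 were below the floor in 7 of 8 controls each, and with those values at the floor their differences were 0.50 and 0.71. Mean log2 levels of the 3 lists overlapped between the groups, at 2.83 to 3.21 against 2.95 to 3.26 for lymphocytes, 2.51 to 3.94 against 3.16 to 4.32 for neutrophils and 3.17 to 3.61 against 3.46 to 3.86 for dendritic cells. Klrb1c and Mpo were below the floor in all samples.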

How the data were processed

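The authors deposited log2 intensities of 29129 probe sets in 16 liver samples. Per the labels' protocols, the RNA was a TRIzol extract, labelled with biotin for Affymetrix arrays. The summarization, normalization and genome build are not given in the sources used here. Column medians of the deposited log2 values ran from 3.52 to 3.66. All values were quantile normalized here, which moved none by more than 0.16. Symbols came from the platform annotation, with 19572 probe sets having 1 symbol and 9557 none. Where a gene had several probe sets, that with the highest mean stood for it, which left 19505 genes. Groups were compared in R 4.3.3 with limma 3.58.1 (lmFit and eBayes, group as the only term, two-sided), with Benjamini-Hochberg adjustment over all genes and a threshold of 0.05.

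The members and lists were chosen with earlier results of these data known. By rule the text names all 9 members, up to 3 called genes of each list with the largest change, genes of the regulator, niche and partner lists that bear on a member, and the 6 genes most like the members. Any other gene was chosen after its values were seen. List genes with no row in the table were not analysed here. Clock genes served only for a covariate, and of 16 measured 5 rose and 5 fell, led by Arntl (-1.79), Ciart (1.48) and Nfil3 (-1.36). Alternatives covered scaling, filters, weights, covariates and left-out samples. The labels do not tie each sample to a separate animal, and p-values then cover only the spread among these samples, which may be technical. The SD of gene differences between NASH model 1a and 1b was 0.39, against 0.34 to 0.47 in the 27 other model pairs, and both were kept as samples. The number of arrays limits the precision.

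Promoter windows came from RefSeq (GRCm38.p6), where all 9 genes matched. Figures were drawn with Python 3.11.15 and matplotlib 3.10.9.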

Additional observations from a re-analysis of the deposited data

Results flagged for a closer look

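Single samples far from the rest of their group were sought in 65 genes in both groups, which made 130 combinations of gene and group. Chance flags about 1 in 20 such groups, and the flags listed here are about as many as that share gives. Timd4 in control 5 was 3.52, below the next control at 4.6, and Vsig4 in NASH model 7 was 5.82, below the next at 6.58. Hmox1 in control 5 was 6.21, below the next at 6.89. Control 4 was far above the other controls in Irf8 (4.83 against 4.29), Itgam (5.73 against 4.09) and S100a8 (4.30 against 2.81).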

How the results depend on the processing

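Cd163, Timd4 and Clec4f kept their direction and their call under the 14 alternatives tried and without any single sample, and Vsig4, Marco and Clec1b were not called under any of them. The filter on dim genes, the mean of probe sets, limma's eBayes options and the clock covariate cannot move a member's log2 difference. The clock score was centred within each group, so it does not adjust for a clock difference between the groups. Folr2 was not called with spike-in centring (-0.49), without NASH model 2 and 7 (-0.57) or with the number in the labels as a replicate block (-0.73, adjusted p = 0.076). With the replicate block Cd5l was not called either (0.52, adjusted p = 0.0865) and Id3 was (0.69, adjusted p = 0.0125), and 3 members were lower in place of 4. Same-numbered samples did not deviate together over all genes (r of -0.03 to 0.06), and 0 of 6 controls correlated best with their own number. The labels do not say what the shared numbers stand for, and a link behind them was not otherwise tested. Without single samples Id3 ran from 0.37 to 0.59, and the number of members called higher from 1 to 2. With spike-in centring 1179 genes were called lower in place of 2619, and 73.7% of all calls were higher, against 49.6% in the main analysis and 39.2% with median centring, which shifted the median of all genes to -0.12. Of the 6 genes most like the members, 3 were again in the first 6 over the 16 samples. The omission of controls 4 and 5 was chosen after seeing the data and left 4 members lower and 1 higher. The cause of these changes was not tested. For Timd4 and Cd163, signal near the floor limits the size of the fall.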
